A study of Arabidopsis thaliana with 20 samples.

Results

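GH3.1, GH3.3 and WES1 are 3 genes of the GH3 family of Arabidopsis thaliana, enzymes that join the auxin indole-3-acetic acid to amino acids. They were taken as every probe set that the array's probe-to-gene table names GH3.1 (AT2G14960), GH3.3 (AT2G23170) or WES1 (AT4G27260, also called GH3.5). Each gene has 1 probe set, which maps to that gene alone, and all 3 passed the filter on low signals and were tested among 15469 probe sets. They are 3 of the 13356 genes that have a probe set of their own in the table, and 3 of 11 GH3 genes named there.

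Auxin acts by bringing Aux/IAA repressors to receptors for destruction, which frees response factors to transcribe early auxin genes. Many GH3 genes are such early genes, and the conjugates their enzymes make remove free auxin, so that the family is known as a negative feedback on auxin. In tissue culture an auxin given together with a cytokinin makes explants form callus, and the balance of both hormones sets whether roots or shoots follow.

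Total RNA of cultured hypocotyl segments was hybridised to 20 Affymetrix arrays, in 10 groups of 2 arrays. All segments came from seedlings of 10 days grown under dim light and spent 3 days on callus induction medium, and the auxin 2,4-D, a synthetic auxin, was present at 100 ng/ml in every group. The mutants ckh1-1 and ckh2-1, named cytokinin hypersensitive, were each cultured with kinetin (a cytokinin) at 0, 25 or 200 ng/ml. The wild type (Ler) was cultured with 100 ng/ml TSA (trichostatin A, which inhibits histone deacetylases) and no kinetin, and with kinetin at 0, 25 or 200 ng/ml. The series asks how CKH1 and CKH2 affect cytokinin responses. No group lacked 2,4-D, so the response of these genes to auxin itself was not measured, and each mutant is represented by 1 allele. The mutated genes' own probe sets are not analysed here.

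Signals are the deposited MAS5 values, on a linear scale. The median signal of an array ran from 92.6 to 137, and both arrays of a group correlated with r from 0.958 to 0.987 across probe sets. Every replicate 1 array had a trimmed mean of 310.9 and every replicate 2 array one of 236.9, a ratio of 1.31, so that a replicate 2 signal tends to be lower in all groups alike. Nothing in the labels says that replicates are separate cultures, and p-values then measure only the spread between these arrays, this scaling difference included. Of the 39 marker genes listed for green tissue, seeds, root hairs, flowers, vascular tissue and meristems, 1 was named on the array and 0 were tested, so the labelled tissue was not checked with them.

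In ckh1-1, GH3.1 and WES1 were lower at 200 ng/ml kinetin than without it, while GH3.3 was not called. GH3.1 signals in ckh1-1 were 684.4 and 468.5 without kinetin, 258.2 and 185.7 at 25 ng/ml, and 89.5 and 24.4 at 200 ng/ml (replicates 1 and 2). Each step lay below the previous one with no overlap of arrays. With 2 arrays a group, such separation can easily arise with no difference. Its share over all probe sets was not counted, so here and below it is a description only. WES1 signals in ckh1-1 were 6381 and 4380 without kinetin, 3821 and 2607 at 25 ng/ml, and 1353 and 720.8 at 200 ng/ml. These too were separated at every step. GH3.3 signals in ckh1-1 were 4553 and 3649, 4775 and 4076, and 4790 and 3096 at the same concentrations, and the 3 groups overlapped.

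At 200 against 0 ng/ml in ckh1-1, GH3.1 fell by 2.93 ± 0.41 on the log2 scale (SE, 95% interval -3.79 to -2.07, adjusted p = 4.37e-05, limma with Benjamini-Hochberg adjustment), which is 7.63-fold lower. WES1 fell by 2.39 ± 0.37 (interval -3.17 to -1.61, adjusted p = 0.000147, limma), 5.23-fold lower. GH3.3 differed by -0.08 ± 0.36, with an interval from -0.83 to 0.66 (adjusted p = 0.929, limma). Thus 2 of the 3 genes were called, both lower, where 11% of all tested probe sets were called in either direction. Fold changes are of log2(signal + 27.39) and understate the change of dim probe sets. GH3.1 in ckh1-1 at 200 ng/ml was near that constant, and its group mean there was below the filter on low signals, so the size of its fall is uncertain. With a constant of 2.739 its change was -3.51. In these bulk samples, fewer cells that express a gene and less RNA per cell cannot be told apart.

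In ckh1-1 the step between 25 and 200 ng/ml was called for both genes and the step up to 25 ng/ml for neither; the difference between the steps was not tested. From 25 to 200 ng/ml GH3.1 changed by -1.66 ± 0.41 (adjusted p = 0.04, limma) and WES1 by -1.65 ± 0.37 (adjusted p = 0.0201, limma), 2 of 3 called against 1.81% of all tested. The GH3.1 call ended when replicate 2 at 200 ng/ml (adjusted p = 0.873) or either array at 25 ng/ml (0.459 and 0.0885) was left out, and the WES1 call without replicate 2 at 200 ng/ml (0.527) or replicate 1 at 25 ng/ml (0.359). GH3.1 was -2.25 and -1.08 without replicates 1 and 2 at 200 ng/ml, and with no filter on low signals neither gene was called (adjusted p = 0.108 for GH3.1 and 0.0702 for WES1, limma). At 25 against 0 ng/ml, GH3.1 had -1.27 ± 0.41 (interval -2.13 to -0.41, adjusted p = 0.149, limma) and WES1 had -0.74 ± 0.37 (interval -1.52 to 0.04, adjusted p = 0.575, limma). None of the 3 was called there, where 1.93% of all tested were. When every array was given the same trimmed mean (rescaling), both were called lower at 25 ng/ml (adjusted p = 0.0315 and 0.0235, limma).

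The 200 against 0 ng/ml calls in ckh1-1 did not rest on 1 array. With each of the 4 arrays left out in turn, GH3.1 ran from -3.52 to -2.35 and WES1 from -2.83 to -1.94, and every such fit called both lower, with adjusted p up to 0.00353 for GH3.1 and 0.00907 for WES1 (limma). The GH3.1 change moved by over 1.5 times, in fold, when either array at 200 ng/ml was left out, to -3.52 without replicate 1 and -2.35 without replicate 2.

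**Figure D1:**
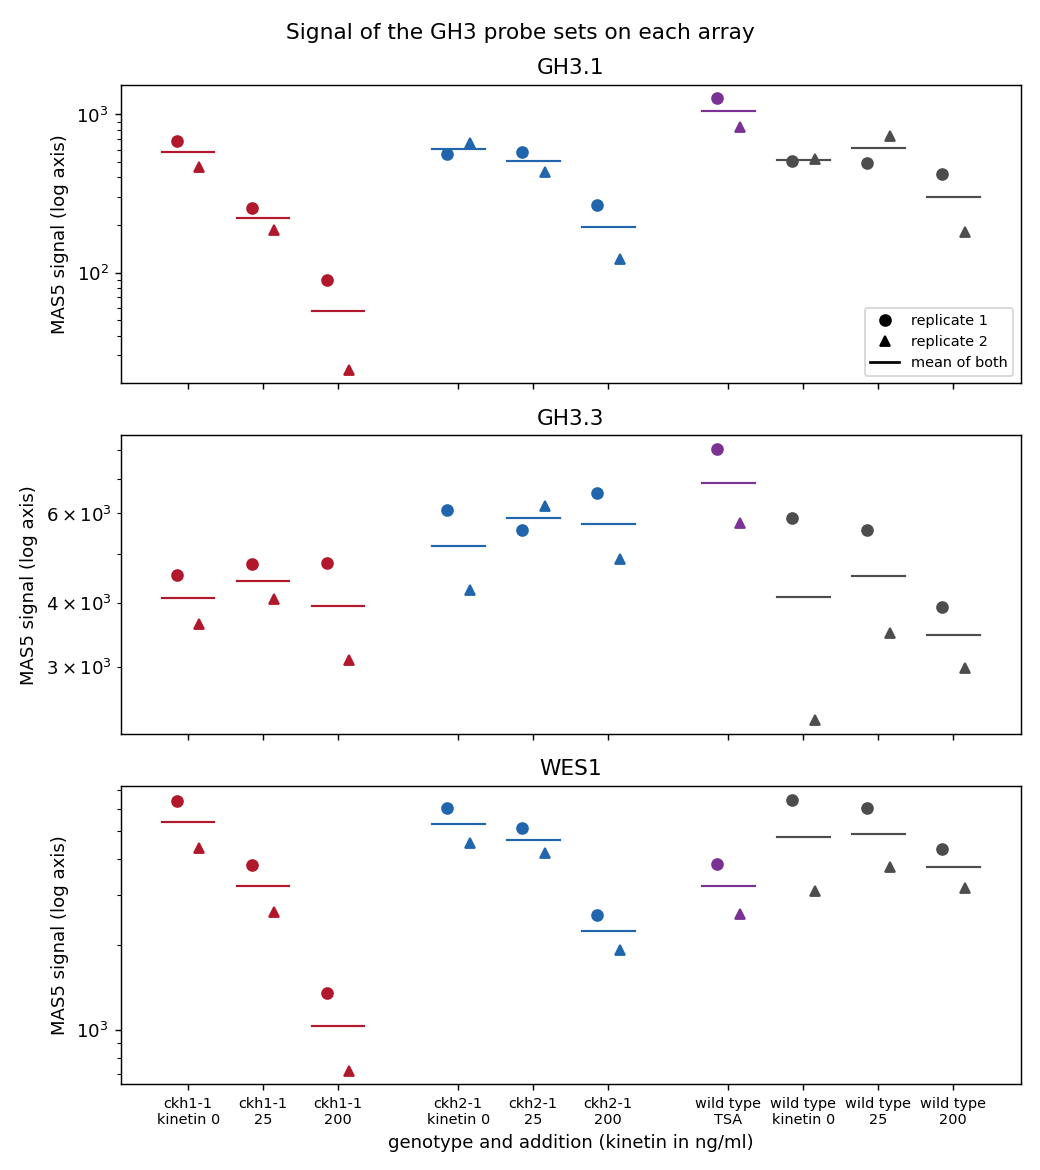
MAS5 signal on a log axis of the 3 probe sets on every array (circles replicate 1, triangles replicate 2, lines the mean of both), with kinetin in ng/ml below each genotype. GH3.1 and WES1 are lowest in ckh1-1 at 200 ng/ml (89.5 and 24.4, and 1353 and 720.8), and GH3.3 has no group apart from all others.

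In ckh2-1 the same 2 genes were lower at 200 ng/ml and GH3.3 was not called. GH3.1 signals in ckh2-1 were 559.4 and 657.1 without kinetin, 578.7 and 431.6 at 25 ng/ml, and 269.8 and 121.7 at 200 ng/ml. The arrays without kinetin and at 25 ng/ml overlapped, and both at 200 ng/ml lay below them. WES1 signals in ckh2-1 were 6045 and 4565 without kinetin, 5147 and 4198 at 25 ng/ml, and 2542 and 1915 at 200 ng/ml, with the same order. GH3.3 signals in ckh2-1 were 6104 and 4251, 5574 and 6198, and 6577 and 4883, and these overlapped throughout.

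At 200 against 0 ng/ml in ckh2-1, GH3.1 fell by 1.59 ± 0.41 (interval -2.45 to -0.73, adjusted p = 0.017, limma), 3.01-fold lower, and WES1 by 1.24 ± 0.37 (interval -2.02 to -0.46, adjusted p = 0.0435, limma), 2.36-fold lower. GH3.3 had 0.15 ± 0.36, with an interval from -0.59 to 0.90. That made 2 of 3 called, both lower, against 8.27% of all tested. The GH3.1 call ended when replicate 2 at 200 ng/ml (-1.09, adjusted p = 0.272) or either array without kinetin (0.0617 and 0.13) was left out. The WES1 call ended when any 1 of the 4 arrays was left out (adjusted p from 0.0872 to 0.282, limma) and when no filter on low signals was used (0.099).

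The remaining ckh2-1 comparisons called none of the 3. At 200 against 25 ng/ml GH3.1 had -1.33 ± 0.41 (interval -2.19 to -0.46, adjusted p = 0.115, limma) and WES1 had -1.07 ± 0.37 (interval -1.85 to -0.29, adjusted p = 0.197), where 2.77% of all tested were called. Both were called lower after rescaling (adjusted p = 0.0235 and 0.00168, limma). At 25 against 0 ng/ml the changes were -0.26 for GH3.1, 0.21 for GH3.3 and -0.18 for WES1, and 0.0905% of all tested were called. Here the intervals ran from -1.13 to 0.60, from -0.54 to 0.95 and from -0.96 to 0.60. The difference between the ckh1-1 and ckh2-1 responses at 25 ng/ml was not tested.

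In wild type none of the 3 genes was called at either concentration. GH3.1 signals in wild type were 505.7 and 523.4 without kinetin, 492.1 and 728.9 at 25 ng/ml, and 422.4 and 181.9 at 200 ng/ml. Both arrays at 200 ng/ml lay below the others, replicate 2 by far more than replicate 1. WES1 signals were 6466 and 3087, 6033 and 3741, and 4323 and 3172, and GH3.3 signals were 5868 and 2359, 5560 and 3500, and 3937 and 2981. For both, the arrays without kinetin spanned those at 200 ng/ml.

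At 200 against 0 ng/ml in wild type, GH3.1 had a log2 change of -0.82 ± 0.41 (interval -1.68 to 0.04, adjusted p = 0.497, limma), -0.25 in replicate 1 and -1.40 in replicate 2. WES1 had -0.27 ± 0.37 (interval -1.05 to 0.51, adjusted p = 0.992) and GH3.3 had -0.12 ± 0.36 (interval -0.86 to 0.63). None of 3 was called against 3.06% of all tested. The falls estimated in ckh1-1, themselves uncertain, lie outside both the GH3.1 and the WES1 interval. The difference between these responses, tested below, was not called. From 25 to 200 ng/ml GH3.1 had -1.03 ± 0.41 (adjusted p = 0.513, limma), GH3.3 -0.36 and WES1 -0.36, with none called against 0.491% of all tested. At 25 against 0 ng/ml the values were 0.21, 0.24 and 0.09, and 0% of all tested probe sets were called (limma), with 243 of 15469 at an unadjusted p below 0.05.

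Averaged over the 3 genotypes, at 200 ng/ml kinetin GH3.1 fell by 1.78 ± 0.24 (interval -2.28 to -1.28, adjusted p = 1.05e-05, limma) and WES1 by 1.30 ± 0.22 (interval -1.75 to -0.85, adjusted p = 0.000135, limma). GH3.3 had -0.02 ± 0.21, with an interval from -0.45 to 0.41. In this comparison of 6 arrays with 6, 2 of 3 were called against 19.8% of all tested, and both calls were made with each of the 12 arrays left out in turn (adjusted p up to 8.9e-05 for GH3.1 and 0.00113 for WES1). The means hold the wild type, where neither gene was called. At 25 ng/ml the means were -0.44 for GH3.1, 0.19 for GH3.3 and -0.28 for WES1, with none called against 2.35% of all tested.

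**Figure D2:**
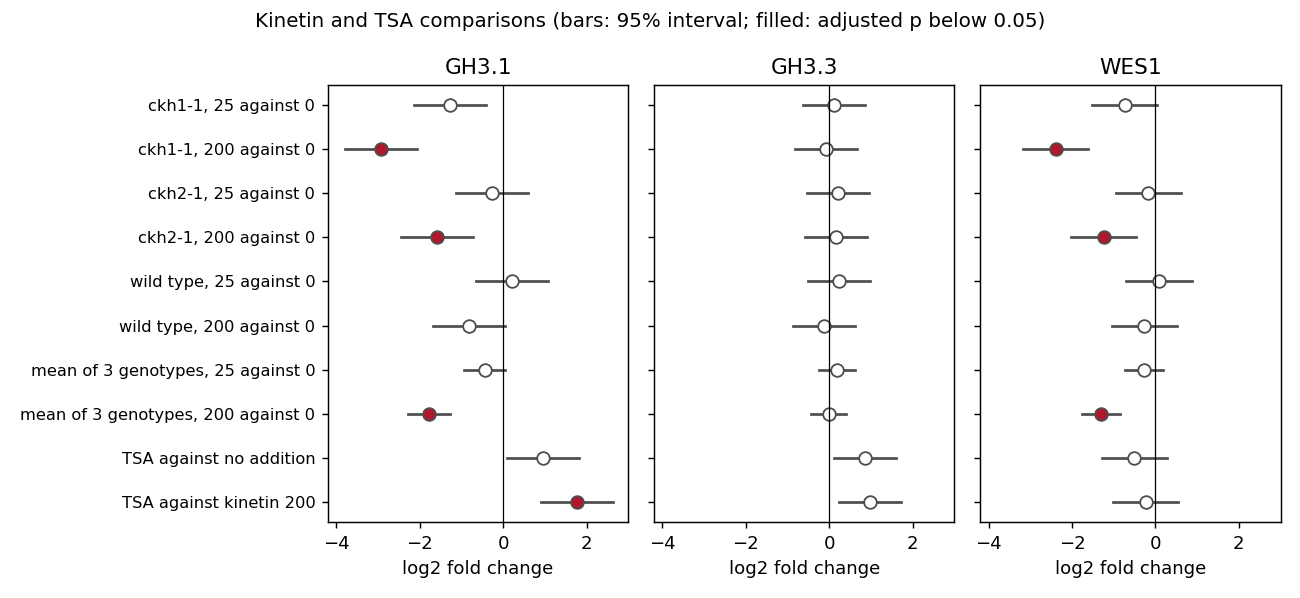
Log2 fold change of the 3 probe sets (x axis) in the kinetin comparisons at 25 and 200 ng/ml and in the TSA comparisons (rows), with 95% intervals unadjusted for the number of probe sets, filled where the adjusted p is below 0.05. GH3.1 and WES1 are filled at 200 ng/ml in ckh1-1 (-2.93 and -2.39) and ckh2-1 (-1.59 and -1.24), and GH3.3 in no row.

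TSA was compared with the medium without additions in wild type. GH3.1 signals were 1262 and 833.1 with TSA, against 505.7 and 523.4 without. Both TSA arrays were above all 18 others for this gene. GH3.3 signals were 8025 and 5735 with TSA, against 5868 and 2359 without, and these overlapped. WES1 signals were 3855 and 2558 with TSA, against 6466 and 3087 without, which also overlapped.

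The TSA changes were 0.96 ± 0.41 for GH3.1 (interval 0.10 to 1.82, adjusted p = 0.158, limma), 0.86 ± 0.36 for GH3.3 (interval 0.12 to 1.61, adjusted p = 0.141) and -0.51 ± 0.37 for WES1 (interval -1.29 to 0.27, adjusted p = 0.459). None of 3 was called, where 11% of all tested were. After rescaling, GH3.1 and GH3.3 were called higher (adjusted p = 0.0445 and 0.00813, limma), and after quantile normalization GH3.3 was called higher and WES1 lower (0.00608 and 0.0219). The GH3.3 value depends on the wild type arrays without kinetin: it was 1.51 with replicate 1 of them left out, called higher with an adjusted p of 0.0168 (limma), and 0.21 without replicate 2.

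Set against 200 ng/ml kinetin in wild type, TSA gave 1.78 ± 0.41 for GH3.1 (interval 0.92 to 2.64, adjusted p = 0.00637, limma), 3.43-fold higher, 0.98 ± 0.36 for GH3.3 (interval 0.24 to 1.72, adjusted p = 0.086) and -0.24 ± 0.37 for WES1 (interval -1.02 to 0.54). Here 1 of 3 was called against 11.7% of all tested. The GH3.1 call ended when wild type replicate 2 at 200 ng/ml was left out (1.23, adjusted p = 0.132) and with TSA replicate 1 left out (1.49, adjusted p = 0.121). GH3.3 was called higher after rescaling (adjusted p = 0.00365, limma).

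Between genotypes, the levels without kinetin did not differ detectably. GH3.1 was 684.4 and 468.5 in ckh1-1 and 559.4 and 657.1 in ckh2-1, against 505.7 and 523.4 in wild type. The changes against wild type were 0.13, 0.13 and 0.24 in ckh1-1 for GH3.1, GH3.3 and WES1, with none called against 2.72% of all tested. In ckh2-1 they were 0.23, 0.45 and 0.23, with none called against 2.39%. The intervals reached from -0.73 to 0.99 for GH3.1 and from -0.54 to 1.02 for WES1 in ckh1-1, and from -0.30 to 1.19 for GH3.3 in ckh2-1. The difference between the mutants, ckh1-1 over ckh2-1, was -0.09 for GH3.1, -0.32 for GH3.3 and 0.01 for WES1, with none called against 1.05%.

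At 200 ng/ml kinetin GH3.1 and WES1 were lower in ckh1-1 than in wild type. GH3.1 was 89.5 and 24.4 in ckh1-1, against 422.4 and 181.9 in wild type, a log2 change of -1.98 ± 0.41 (interval -2.84 to -1.12, adjusted p = 0.00588, limma), 3.94-fold lower. WES1 was 1353 and 720.8 in ckh1-1, against 4323 and 3172 in wild type, a change of -1.88 ± 0.37 (interval -2.66 to -1.10, adjusted p = 0.00401, limma), 3.67-fold lower. The arrays did not overlap for either gene. The GH3.1 group mean in ckh1-1 was below the filter on low signals, so the size of its change is uncertain. GH3.3 was 4790 and 3096 in ckh1-1, against 3937 and 2981 in wild type, which overlapped (0.17 ± 0.36, interval -0.58 to 0.91).

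That made 2 of 3 called, both lower, against 4.29% of all tested. Both calls ended without replicate 2 of ckh1-1 at 200 ng/ml (GH3.1 -1.39, adjusted p = 0.192, and WES1 -1.43, adjusted p = 0.133) and without wild type replicate 1 at that concentration (-1.43, adjusted p = 0.135, and -1.65, adjusted p = 0.0565). Without replicate 1 of ckh1-1 at 200 ng/ml, GH3.1 was -2.57 (adjusted p = 0.00478). Averaged over the 3 kinetin levels, ckh1-1 had less GH3.1 by -1.06 ± 0.24 (adjusted p = 0.00478, limma) and less WES1 by -0.74 ± 0.22 (adjusted p = 0.0312, limma), again 2 of 3 against 9.96% of all tested. These means hold the level without kinetin, where neither gene was lower in ckh1-1 (0.13 and 0.24), and the arrays overlapped for both. The WES1 call in that mean ended in 6 of 12 fits with 1 array left out and with no filter (adjusted p = 0.0749). At 25 ng/ml GH3.1 had -1.35 ± 0.41 (interval -2.21 to -0.48, adjusted p = 0.111, limma) and WES1 -0.59 ± 0.37, with none called against 2.33% of all tested, and GH3.1 was called lower after rescaling (adjusted p = 0.023, limma).

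In ckh2-1 at 200 ng/ml none of the 3 was called against wild type, where 4.2% of all tested were. GH3.1 was 269.8 and 121.7 in ckh2-1, against 422.4 and 181.9 in wild type, and overlapped (-0.54 ± 0.41, interval -1.40 to 0.32). WES1 was 2542 and 1915 in ckh2-1, against 4323 and 3172 in wild type, with no overlap (-0.74 ± 0.37, interval -1.52 to 0.04, adjusted p = 0.461, limma). GH3.3 was 6577 and 4883 in ckh2-1, against 3937 and 2981 in wild type, also with no overlap but in the other direction (0.72 ± 0.36, interval -0.02 to 1.47, adjusted p = 0.441, limma).

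Rescaling the arrays called WES1 lower and GH3.3 higher in ckh2-1 at 200 ng/ml (adjusted p = 0.0166 and 0.0456, limma). Over the 3 kinetin levels, GH3.3 had 0.53 ± 0.21 in ckh2-1 over wild type (interval 0.10 to 0.96, adjusted p = 0.134, limma), GH3.1 had -0.19 and WES1 -0.18, with none called against 9.98% of all tested. After rescaling, GH3.3 was called higher in that mean (adjusted p = 0.0067, limma), and it was also called when wild type replicate 1 of the group given no kinetin was left out (0.75, adjusted p = 0.0123). At 25 ng/ml the ckh2-1 values were -0.25, 0.41 and -0.03 for GH3.1, GH3.3 and WES1, with none called against 2.01% of all tested.

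Set side by side at 200 ng/ml, ckh1-1 and ckh2-1 differed by no call for the 3 genes. Signals of all 3, GH3.3 included, were lower on both ckh1-1 arrays than on either ckh2-1 array. The change of ckh1-1 over ckh2-1 was -1.44 ± 0.41 for GH3.1 (interval -2.30 to -0.57, adjusted p = 0.0969, limma), -1.14 ± 0.37 for WES1 (interval -1.92 to -0.36, adjusted p = 0.178) and -0.55 ± 0.36 for GH3.3, with none called against 1.6% of all tested. After rescaling, GH3.1 and WES1 were called (adjusted p = 0.0164 and 0.0016, limma). At 25 ng/ml the values were -1.10, -0.41 and -0.55 for GH3.1, GH3.3 and WES1, with none called against 0.918%.

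Whether a mutant's response to kinetin differed from that of wild type was tested as the difference between the changes. At 200 ng/ml the ckh1-1 response minus the wild type response was -2.11 ± 0.58 for GH3.1 (interval -3.33 to -0.89, adjusted p = 0.104, limma), -2.12 ± 0.53 for WES1 (interval -3.22 to -1.01, adjusted p = 0.0552) and 0.04 ± 0.50 for GH3.3 (interval -1.02 to 1.09). None of 3 was called, where 1.22% of all tested were. The difference had the same sign in both replicates for GH3.1 (-2.36 and -1.86) and for WES1 (-1.64 and -2.60). After rescaling, both were called (adjusted p = 0.0184 for GH3.1 and 0.000176 for WES1, limma). The wild type arrays without kinetin enter this difference too, and without replicate 1 of them WES1 was -2.65 with adjusted p = 0.0103.

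For ckh2-1 the response at 200 ng/ml minus that of wild type was -0.77 ± 0.58 for GH3.1 (interval -1.99 to 0.45), -0.97 ± 0.53 for WES1 (interval -2.07 to 0.13) and 0.27 ± 0.50 for GH3.3 (interval -0.78 to 1.33), with none called against 0.362% of all tested. The response of ckh1-1 minus that of ckh2-1 was -1.34, -1.15 and -0.23 for GH3.1, WES1 and GH3.3, with none called against 0.084%. At 25 ng/ml the differences were -1.48, -0.83 and -0.13 in ckh1-1, where 0.00646% of all tested were called, and -0.47, -0.26 and -0.04 in ckh2-1, where 0% were. So a larger kinetin response of GH3.1 and WES1 in ckh1-1 than in wild type had intervals below 0 but did not pass the test across all probe sets with the values as deposited. The comparisons with wild type and with no kinetin share arrays and are not independent of each other. In all, 22 of the 29 comparisons called none of the 3 genes, and 11 of these 22 held at least 1 of them at an unadjusted p below 0.05 (16 values, limma). In these 11 comparisons, from 3.72% to 23.4% of all tested probe sets had such an unadjusted p. For the 25 ng/ml response of ckh2-1 minus wild type, none of the 3 did, and 178 of all tested probe sets did.

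**Figure D3:**
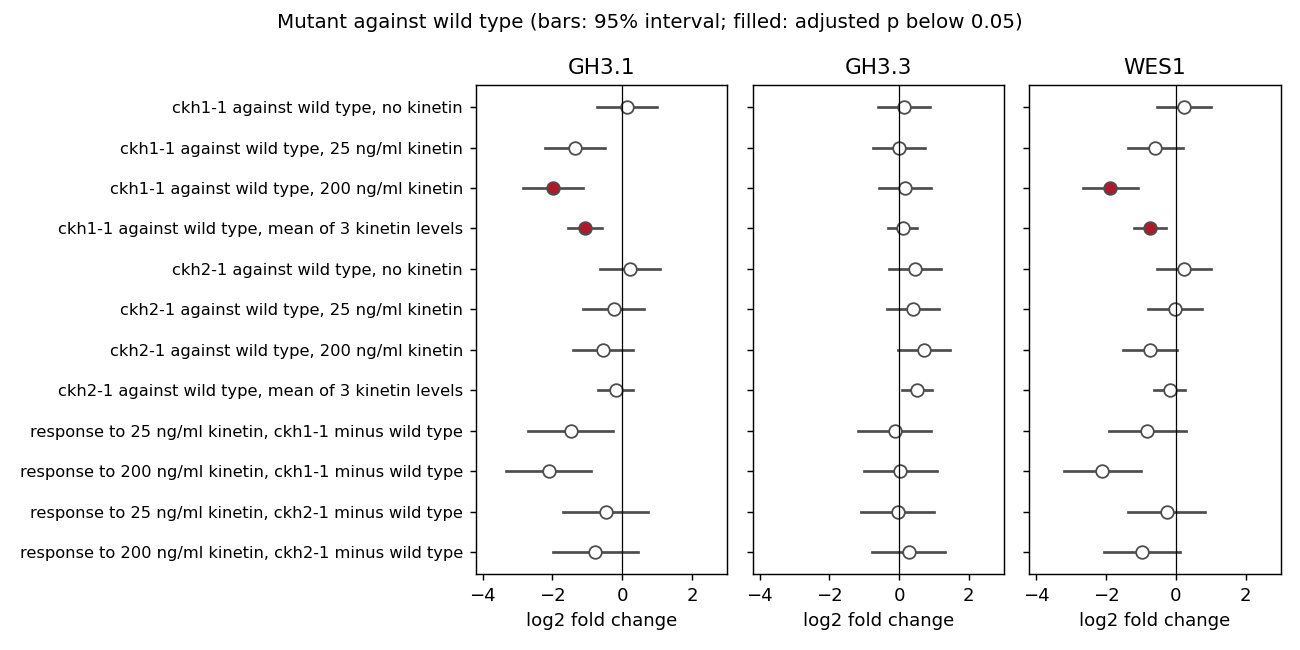
Log2 fold change of the 3 probe sets (x axis) in the mutants against wild type at each kinetin level and as the difference between kinetin responses (rows), with unadjusted 95% intervals, filled where the adjusted p is below 0.05. GH3.1 and WES1 are filled in ckh1-1 at 200 ng/ml (-1.98 and -1.88) and in its mean over kinetin levels (-1.06 and -0.74), and no difference between responses is filled.

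Over the 10 groups the 3 genes were ordered differently. Group means of GH3.1 spanned 3.76 on the log2 scale, with wild type with TSA highest (1047 ± 303) and ckh1-1 at 200 ng/ml lowest (57.0 ± 46.1, SD, n = 2 each). Of its 9 pairs of neighbours in that order 6 overlapped. The breaks stood below the TSA group, between ckh2-1 at 25 ng/ml and wild type at 200 ng/ml, and above ckh1-1 at 200 ng/ml.

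WES1 means spanned 2.39, with ckh1-1 without kinetin highest (5381 ± 1415) and ckh1-1 at 200 ng/ml lowest (1037 ± 447, SD, n = 2 each). Of its 9 neighbouring pairs 7 overlapped, and the breaks set apart ckh2-1 at 200 ng/ml and, below it, ckh1-1 at 200 ng/ml. The TSA group, highest for GH3.1, stood 8th of 10 for WES1. GH3.3 means spanned 0.98, with wild type with TSA highest (6880 ± 1619) and wild type at 200 ng/ml lowest (3459 ± 676, SD, n = 2 each), and all 9 neighbouring pairs overlapped. As a description over 10 group means, which share arrays and scaling, the log2 levels of GH3.1 and WES1 correlated with r = 0.84, GH3.1 and GH3.3 with r = 0.41, and WES1 and GH3.3 with r = 0.07.

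Because the array scaling is the same for all probe sets of an array, the log2 ratio of 2 of them within an array does not depend on it. A shift of the ratio reflects unequal change of the genes, not which of them changed, and no ratio was tested. WES1 over GH3.3 was -1.82 and -2.10 in ckh1-1 at 200 ng/ml and -1.37 and -1.35 in ckh2-1 at 200 ng/ml, against 0.14 and 0.09 in wild type at 200 ng/ml. Without kinetin it lay between -0.01 and 0.49 on the 6 arrays of the 3 genotypes. With TSA it was -1.06 and -1.16, below the 0.14 and 0.39 of wild type without additions.

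GH3.1 over GH3.3 was -5.74 and -6.99 in ckh1-1 at 200 ng/ml and -4.61 and -5.33 in ckh2-1, against -3.22 and -4.03 in wild type at that concentration. Without kinetin it lay between -3.54 and -2.17 on the 6 arrays. The -6.99 and -5.74 rest on GH3.1 signals of 24.4 and 89.5, in a group whose mean was below the filter on low signals and which was not shown to be above background, so their size is uncertain. With TSA it was -2.67 and -2.78, within the range of wild type without additions. GH3.1 over WES1 was -1.61 and -1.62 with TSA, against -3.68 and -2.56 in wild type without additions. This separation is a description only.

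**Figure D4:**
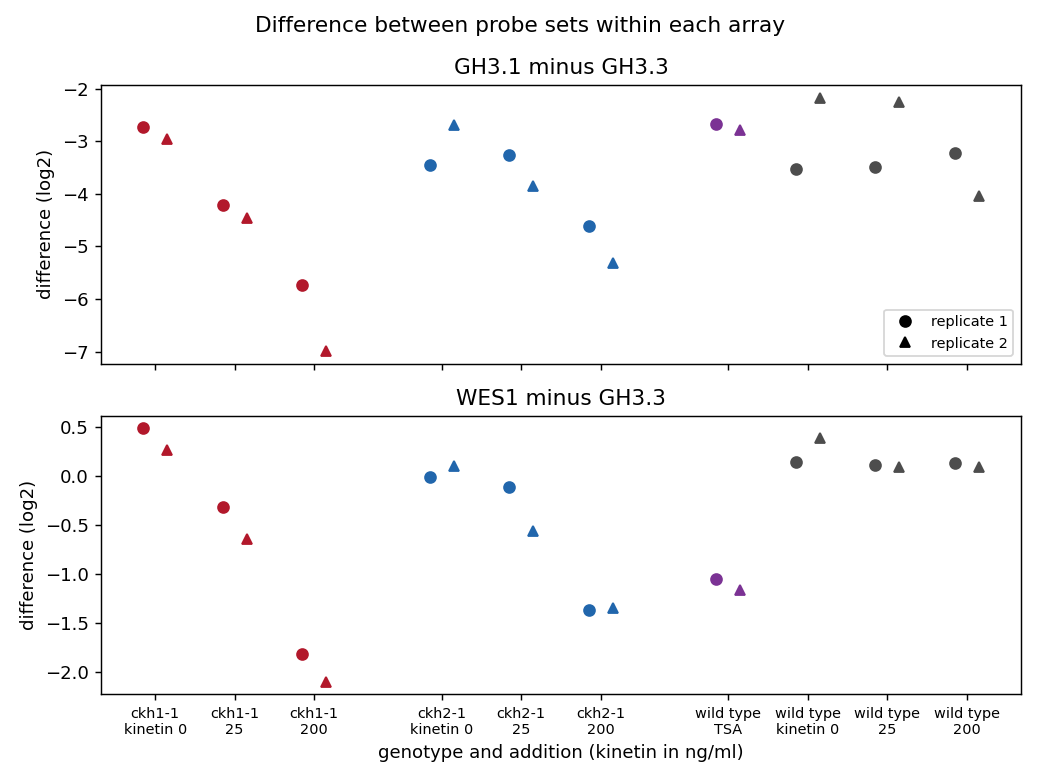
Log2 ratio of the deposited signals of GH3.1 to GH3.3 (top) and of WES1 to GH3.3 (bottom) within each array, by group. WES1 over GH3.3 lies between -2.10 and -1.82 in ckh1-1 and between -1.37 and -1.35 in ckh2-1 at 200 ng/ml, and between 0.09 and 0.14 in wild type.

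Other GH3 genes did not all follow GH3.1 and WES1. Of 19 listed family genes 11 were named on the array and 5 tested, the 3 above with GH3.17 and GH3.7. The 6 others named (GH3.8, GH3.9, GH3.14, GH3.16, GH3.18 and GH3.19) had signals of at most 74.9 on any array and were not tested. GH3.17, which conjugates auxin to glutamate, was 238.8 and 111.3 in ckh1-1 at 200 ng/ml, against 586.9 and 556.5 in ckh1-1 without kinetin, and fell by 1.64 ± 0.39 (adjusted p = 0.00828, limma). In ckh2-1 it was 951.7 and 576.6 at 200 ng/ml, against 1124 and 811.6 without kinetin, and overlapped (-0.35 ± 0.39, interval -1.18 to 0.47). It was also lower with TSA, at 237.2 and 111.2, against 692.5 and 459.8 without (-1.63 ± 0.39, adjusted p = 0.00915, limma), where GH3.1 was not lower on either array.

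GH3.17 differed between the mutants at 200 ng/ml, lower in ckh1-1 than in ckh2-1 (interval -2.83 to -1.18, adjusted p = 0.00949, limma), and was lower in ckh1-1 than in wild type by -1.73 ± 0.39 (adjusted p = 0.0117, limma). GH3.7 had low signals and another pattern. It was 135.9 and 122.9 in ckh2-1 without kinetin, 61.4 and 124.5 at 25 ng/ml and 37.3 and 38.1 at 200 ng/ml. In ckh1-1 it was 3.2 and 2.5 without kinetin, 100.9 and 71.9 at 25 ng/ml and 19.4 and 15.2 at 200 ng/ml, while no wild type array was above 23.2. Only 3 of its 10 groups, those with the high values (ckh2-1 at 0 and 25 ng/ml and ckh1-1 at 25 ng/ml), lay above the filter on low signals and let it into the test, so its changes are given as values with no test.

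At 200 against 0 ng/ml in ckh1-1 GH3.1, WES1 and GH3.17 were called lower, where 11% of all tested probe sets were called. GH3.3 was not called there. In wild type none of these genes was called, where 3.06% of all tested were. In ckh2-1 GH3.1 and WES1 were called lower, where 8.27% of all tested were called. At 200 against 25 ng/ml in ckh1-1 GH3.1, WES1 and GH3.17 were called lower, where 1.81% of all tested were called. GH3.7 is left out of all these comparisons, since groups where it is high let it into the test.

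Around the conjugating enzymes, the genes of auxin response and auxin breakdown given below were mostly named because they were called at 200 against 0 ng/ml in a mutant. They do not stand for their lists, which hold tested genes that were not called. The lists of receptors, response factors and transporters had no named member. LBD16, a factor of lateral root initiation downstream of auxin response factors, was 133.8 and 91.9 in ckh1-1 at 200 ng/ml, against 1001 and 706.7 in ckh1-1 without kinetin (-2.65, adjusted p = 1.55e-05, limma), and changed by -1.66 in ckh2-1 (adjusted p = 0.00266). In wild type it had -1.17 (adjusted p = 0.0724, limma). PUCHI, another lateral root factor, was called lower in wild type (-0.92, adjusted p = 0.0405, limma). It had -2.36 in ckh1-1 and -2.15 in ckh2-1. Both mutant groups at 200 ng/ml lay below the filter on low signals, so these changes are given as values with no test. LBD29 had 0.46 in ckh1-1 (adjusted p = 0.597), fell by 1.43 in ckh2-1 (adjusted p = 0.0488, limma) and had -0.75 in wild type (adjusted p = 0.644).

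Of the genes of auxin inactivation by other routes, 3 were tested. DAO1 had mean signals of 186.1 in ckh1-1 without kinetin and 317.0 at 200 ng/ml, and 144.0 and 218.1 in ckh2-1. In wild type its means were 215.3 and 204.9 at these concentrations, and 249.6 with TSA. DAO2, a dioxygenase related to the auxin oxidase DAO1, was 475 and 287.1 with TSA, against 43.3 and 25.6 in wild type without additions. UGT74D1, which glucosylates auxin, was 61.3 and 61.7 with TSA, against 442.6 and 404.2 without additions, and fell by 2.34 ± 0.38 (adjusted p = 0.000332, limma). The TSA group of UGT74D1 lay below the filter on low signals, so the size of this fall is uncertain. In ckh1-1 DAO2 was 248.8 and 121.7 at 200 ng/ml, against 23.8 and 13.6 without kinetin, and in ckh2-1 324 and 178.7, against 65.9 and 24.0. Its level in wild type was 128.9 and 102.6 at 200 ng/ml.

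DAO2 was above the filter on low signals in 7 of the 10 groups, IAA20 in 5, ARR15 in 3 and YUC6 in 1, in each case those where the gene is high, so these 4 are given as values with no test. IAA20, a repressor of the Aux/IAA family, was 11.8 and 5.7 in ckh1-1 at 200 ng/ml, against 148.3 and 132.5 in ckh1-1 without kinetin, 27.8 and 5.3 in ckh2-1, against 109.3 and 70.1, and 42.0 and 14.4 in wild type, against 103.4 and 68.1. The other 3 tested Aux/IAA genes were not called in either mutant at 200 against 0 ng/ml. Of the auxin synthesis genes, YUC6 was 110.6 and 91.4 in wild type at 200 ng/ml, against 10.5 and 29.0 without kinetin, and no array of another group was above 60.7. YUC2 was not called at 200 against 0 ng/ml in any genotype. ARR15, a type-A response regulator that cytokinin induces, was 174.2 and 107.2 in ckh1-1, 223 and 179.5 in ckh2-1 and 254.2 and 94.4 in wild type at 200 ng/ml, and at most 63.1 on any other array.

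The probe sets most like each gene were sought among some 2551 single-gene probe sets whose group means span at least 1 log2 unit, by Pearson's r over the 10 group means. For GH3.1 they were LBD16 (r = 0.959), AT5G40630 (0.956) and AT2G03850 (0.956), all highest with TSA and lowest in ckh1-1 at 200 ng/ml. For WES1 they were AT5G02540 (0.991), AT5G45670 (0.98) and AT2G45340 (0.971), all lowest in ckh1-1 at 200 ng/ml. For GH3.3 they were AT1G04350 (0.946), AT3G54400 (0.941) and AT2G45180 (0.939), all lowest in wild type at 200 ng/ml, and AT1G04350 highest in ckh2-1 at 200 ng/ml rather than with TSA. These were picked as the highest of many values, and are descriptions only.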

How the data were processed

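The 20 arrays carry hypocotyl RNA labelled as cRNA by the standard Affymetrix protocol, per the labels. The authors deposited linear signal intensity values of 22810 probe sets, made with MAS5 per the submitters' processing notes; no source used here gives its version or scaling target, and detection calls were not used here. Groups came from the sample titles. Control probe sets (64) were left out, and 15469 of 22746 others had a group mean above the 40th percentile (6.55 on the log2 scale) in at least 1 group; 7277 did not. Values were analysed as log2(signal + 27.39), the constant being 0.1 of the median trimmed mean (2% trimmed), with limma 3.58.1 in R 4.3.3: 1 fit of 10 group means, eBayes with a trend, 10 residual degrees of freedom, Benjamini-Hochberg adjustment within each of 29 comparisons, called below 0.05. Intervals are 95% and unadjusted. The number of arrays limits the precision: the median SE for 2 arrays against 2 was 0.289.

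Genes were named from the platform's probe table, where 13513 probe sets name 1 gene, 503 several and 8730 none. The text names the 3 genes, every other named GH3 gene, list members called at 200 against 0 ng/ml kinetin in either mutant, and for each gene the 3 probe sets most like it. From the same lists, DAO1, UGT74D1, YUC2 and YUC6 were named after their values were seen. The genes and lists were chosen with earlier results of these data known. Alternatives were quantile normalization, rescaling to a common trimmed mean, no filter, a constant of 2.739, the replicate number as a block, and leaving out each array with and without the block. With 1 array left out, the lone array of its group is assumed to vary like the others.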

Additional observations from a re-analysis of the deposited data

How the results depend on the processing

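All values are log2 changes of GH3.1, GH3.3 and WES1. The precision is limited by 2 arrays a group and by the scaling difference between replicate numbers, which the reported fit counts as spread. The falls of GH3.1 and WES1 in ckh1-1 at 200 against 0 ng/ml, and in the mean of 3 genotypes, were called under every alternative. Calls in ckh2-1, in ckh1-1 against wild type at 200 ng/ml and at 200 against 25 ng/ml were not. Nor were the WES1 call in the ckh1-1 mean over kinetin levels and the GH3.1 call with TSA against 200 ng/ml kinetin. With 1 array left out and no block, 24 of 84 fits lost a call that the reported fit made, and 6 of 420 gained one, with 66 changes of sign among values that were not called. The alternatives with a common scale or a block made more calls, and an uncalled value in the reported fit is therefore not shown to be unchanged.

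Same-numbered arrays of different groups deviated together in some pairs of groups and not in others. The correlation of their deviations ran from -0.13 to 0.64 over 45 pairs, above 0.1 in 27. A shift shared by all probe sets, such as the scaling difference, does not enter this correlation. It therefore does not settle whether the numbers pair the samples, and the reported fit left them unpaired. The median SE for 2 arrays against 2 was 0.169 with the block, against 0.289 without. With the replicate number as a block, 20 of the values not called in the reported fit were called and no call was lost. These were the response to 200 ng/ml in ckh1-1 minus wild type (GH3.1 -2.11, WES1 -2.12), in ckh2-1 minus wild type (WES1 -0.97) and in ckh1-1 minus ckh2-1 (WES1 -1.15), TSA against no addition (GH3.1 0.96, GH3.3 0.86, WES1 -0.51), TSA against 200 ng/ml kinetin (GH3.3 0.98), and ckh2-1 against wild type at 200 ng/ml (GH3.3 0.72, WES1 -0.74) and in the mean (GH3.3 0.53). The others were ckh1-1 against wild type at 25 ng/ml (GH3.1 -1.35, WES1 -0.59), ckh1-1 against ckh2-1 at 200 ng/ml (GH3.1 -1.44, WES1 -1.14) and 25 ng/ml (WES1 -0.55), ckh1-1 at 25 against 0 ng/ml (GH3.1 -1.27, WES1 -0.74) and ckh2-1 at 200 against 25 ng/ml (GH3.1 -1.33, WES1 -1.07).

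After rescaling, 15 further values were called, with -2.13 for GH3.1 and -2.12 for WES1 in the ckh1-1 minus wild type response, 0.96 for GH3.1 and 0.86 for GH3.3 with TSA against no addition, and 0.72 for GH3.3 and -0.74 for WES1 in ckh2-1 against wild type at 200 ng/ml. After quantile normalization 15 further values were called, with -2.05 and -2.03 for GH3.1 and WES1 in the ckh1-1 minus wild type response, 0.80 for GH3.3 and -0.57 for WES1 with TSA, and 0.80 for GH3.3 and -0.73 for WES1 in ckh2-1 at 200 ng/ml. The smaller constant called WES1 in the ckh1-1 minus wild type response (-2.15), and without the filter WES1 in ckh2-1 at 200 against 0 ng/ml was no longer called (-1.24), where more probe sets were tested. Also lost without the filter were the calls of WES1 in the ckh1-1 mean over kinetin levels, and of GH3.1 and WES1 in ckh1-1 at 200 against 25 ng/ml. Signs changed for GH3.3 in ckh1-1 against wild type at 25 ng/ml, a value near 0 (0.059 with quantile normalization, 0.0001 rescaled, 0.0002 with the smaller constant), and with quantile normalization for WES1 in ckh1-1 against ckh2-1 without kinetin (-0.14) and in ckh2-1 against wild type at 25 ng/ml (0.077).

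With 1 array left out, with or without the block, values with a changed sign or call had these ranges. In ckh1-1 against wild type at 200 ng/ml GH3.1 ran from -2.57 to -1.39, GH3.3 from -0.14 to 0.48 and WES1 from -2.32 to -1.43. Without kinetin they ran from -0.14 to 0.40, -0.52 to 0.78 and -0.29 to 0.77, and GH3.3 ran from -0.33 to 0.33 at 25 ng/ml and -0.12 to 0.32 in the mean. In ckh2-1 against wild type GH3.1 ran from -1.10 to 0.0084 and WES1 from -0.96 to -0.52 at 200 ng/ml, and from -0.79 to 0.30 and -0.37 to 0.31 at 25 ng/ml. Without kinetin the 3 ran from -0.14 to 0.59, -0.20 to 1.10 and -0.30 to 0.76. In ckh1-1 against ckh2-1 without kinetin GH3.1 ran from -0.46 to 0.27 and WES1 from -0.26 to 0.28. In ckh2-1 at 200 against 0 ng/ml the 3 ran from -2.09 to -1.09, -0.11 to 0.41 and -1.44 to -1.04, at 25 against 0 ng/ml from -0.63 to 0.10, -0.15 to 0.56 and -0.38 to 0.026, and GH3.3 at 200 against 25 ng/ml from -0.40 to 0.30. In ckh1-1 GH3.3 ran from -0.39 to 0.23 at 200 against 0 ng/ml, -0.51 to 0.12 at 200 against 25 ng/ml and -0.045 to 0.27 at 25 against 0 ng/ml. In wild type the 3 ran from -0.33 to 0.75, -0.41 to 0.90 and -0.44 to 0.62 at 25 against 0 ng/ml, and GH3.3 from -0.77 to 0.53 and WES1 from -0.80 to 0.26 at 200 against 0 ng/ml. In the mean of 3 genotypes GH3.3 ran from -0.23 to 0.20 at 200 ng/ml and -0.030 to 0.40 at 25 ng/ml. With TSA against no addition the 3 ran from 0.67 to 1.25, 0.21 to 1.51 and -1.04 to 0.025, and WES1 against 200 ng/ml kinetin from -0.53 to 0.057. The response to 200 ng/ml in ckh1-1 minus wild type ran from -2.70 to -1.52, -0.61 to 0.69 and -2.65 to -1.59, GH3.3 in ckh1-1 minus ckh2-1 from -0.55 to 0.079, and in ckh2-1 minus wild type GH3.3 from -0.38 to 0.92 and WES1 from -1.50 to -0.44. At 25 ng/ml GH3.3 in ckh1-1 minus wild type ran from -0.78 to 0.52, and the 3 in ckh2-1 minus wild type from -1.02 to 0.070, -0.69 to 0.61 and -0.79 to 0.27. The causes were not tested.

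Counts of called probe sets over the whole array moved more. Over all alternatives, against the reported count, they ran in ckh1-1 from 1030 to 5145 against 1699 (200 against 0 ng/ml), 120 to 772 against 280 (200 against 25) and 68 to 1471 against 299 (25 against 0). In ckh2-1 they ran from 727 to 3847 against 1280, 237 to 1448 against 428 and 0 to 146 against 14, and in wild type from 148 to 1764 against 474, 12 to 658 against 76 and 0 to 10 against 0. In the mean of 3 genotypes they ran from 2481 to 7091 against 3063 at 200 ng/ml and 220 to 1580 against 363 at 25 ng/ml, and with TSA from 736 to 5487 against 1696 and 794 to 5287 against 1817. In ckh1-1 against wild type the ranges at 0, 25 and 200 ng/ml and in the mean were 158 to 1407 against 420, 61 to 1509 against 361, 279 to 2265 against 664 and 1231 to 3898 against 1540. In ckh2-1 against wild type they were 140 to 1215 against 370, 143 to 1225 against 311, 271 to 2079 against 650 and 1262 to 3821 against 1544, and in ckh1-1 against ckh2-1 22 to 1040 against 163, 39 to 1131 against 142 and 52 to 1399 against 247. For the responses to 200 ng/ml they were 111 to 820 against 189 (ckh1-1 minus wild type), 15 to 269 against 56 (ckh2-1 minus wild type) and 1 to 137 against 13 (ckh1-1 minus ckh2-1), and to 25 ng/ml 0 to 158 against 1 and 0 to 1 against 0.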
